A study of Mus musculus with 3 samples.

Results

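Metallothioneins and zinc transporters were described in 10 genes of 55536 mouse genes measured: the metallothioneins Mt1 and Mt2, the transcription factor gene Mtf1, the importers Slc39a1, Slc39a8, Slc39a10 and Slc39a14, and the exporters Slc30a1, Slc30a5 and Slc30a7. The rule takes the genes by symbol and uses no measured value, although the list was drawn up with earlier results of these data known, and each symbol was matched to its gene identifier. The libraries hold polyadenylated RNA of bone-marrow-derived macrophages, phagocytes grown from marrow, of the inbred mouse strain C57BL/6J. Cells had been exposed for 180 min to 100 ng/mL of lipid A, the membrane anchor of lipopolysaccharide and the ligand of Toll-like receptor 4, according to the sample descriptions, while the source name and treatment fields give lipoprotein A, typed as a protein. There are 3 libraries, labelled biological replicates 1, 2 and 3 of 1 group, which share 1 donor identifier, and sex and age were not collected. Unstimulated or control cells were not analysed here, so no value below is a response to the stimulus. No aim of the study is stated in the labels.

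Zinc is bound in the cytosol by metallothioneins, small proteins whose many cysteines hold clusters of metal ions. Free zinc is sensed by MTF1, a zinc-finger factor that binds short metal response elements and is known to drive Mt1, Mt2 and Slc30a1. ZIP proteins (Slc39a genes) carry zinc into the cytosol from outside the cell or from organelles, and ZnT proteins (Slc30a genes) carry it out of the cytosol. Macrophages are known to use both families to withhold zinc from microbes or to load it into phagosomes.

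The coding sequences of Mt1 and Mt2 are shown because they carry the feature that defines the family and because they bear on whether reads of the 2 genes can be told apart. They are the coding parts of transcripts Mt1-201 (mm10 chromosome 8, 94179082 to 94180327, plus strand, 3 exons) and Mt2-201 (chromosome 8, 94172664 to 94173568, plus strand, 3 exons) in GENCODE M21, and capitals mark TGC and TGT codons, which encode cysteine.
Mt1-201: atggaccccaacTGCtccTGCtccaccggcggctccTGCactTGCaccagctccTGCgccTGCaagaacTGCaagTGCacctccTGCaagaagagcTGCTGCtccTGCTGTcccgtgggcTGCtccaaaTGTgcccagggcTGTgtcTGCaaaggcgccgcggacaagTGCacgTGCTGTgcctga
Mt2-201: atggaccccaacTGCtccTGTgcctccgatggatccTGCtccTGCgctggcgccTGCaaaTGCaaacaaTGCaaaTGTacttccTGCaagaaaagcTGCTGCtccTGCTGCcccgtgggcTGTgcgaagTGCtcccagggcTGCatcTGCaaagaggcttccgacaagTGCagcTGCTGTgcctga
Both hold 61 codons before the stop, and 20 of these encode cysteine, at the same positions in both genes (32.8%). The coding sequences are identical at 148 of 186 bases (79.6%), and the longest identical run between the 2 transcripts is 20 bases. The genes are neighbours on the same strand, with 5513 bases between them.

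Promoter windows of Mt1, Mt2 and Slc30a1 are shown because, of the 9 members with a window in the RefSeq table, these have the most matches to the metal response element core, searched as TGCACNC and TGCGCNC on both strands. Each window runs from 250 bases before to 50 bases after the RefSeq start (GRCm38.p6), and capitals mark the matches. Where the matched bases read as the reverse complement, the core lies on the opposite strand.
Mt1, chr8:94178839-94179138, plus strand: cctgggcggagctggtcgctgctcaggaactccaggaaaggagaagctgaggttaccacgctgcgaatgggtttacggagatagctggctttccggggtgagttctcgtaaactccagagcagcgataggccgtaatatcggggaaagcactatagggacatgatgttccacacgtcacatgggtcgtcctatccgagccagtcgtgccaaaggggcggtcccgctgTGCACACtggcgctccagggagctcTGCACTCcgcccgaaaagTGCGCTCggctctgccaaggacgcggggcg
Mt2, chr8:94172368-94172667, plus strand: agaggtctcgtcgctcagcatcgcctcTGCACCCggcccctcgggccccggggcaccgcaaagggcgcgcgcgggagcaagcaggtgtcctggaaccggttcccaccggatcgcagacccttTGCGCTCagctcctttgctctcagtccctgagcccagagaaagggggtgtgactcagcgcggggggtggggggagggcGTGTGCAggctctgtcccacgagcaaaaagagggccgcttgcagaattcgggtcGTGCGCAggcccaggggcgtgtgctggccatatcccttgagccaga
Slc30a1, chr1:191906531-191906830, plus strand: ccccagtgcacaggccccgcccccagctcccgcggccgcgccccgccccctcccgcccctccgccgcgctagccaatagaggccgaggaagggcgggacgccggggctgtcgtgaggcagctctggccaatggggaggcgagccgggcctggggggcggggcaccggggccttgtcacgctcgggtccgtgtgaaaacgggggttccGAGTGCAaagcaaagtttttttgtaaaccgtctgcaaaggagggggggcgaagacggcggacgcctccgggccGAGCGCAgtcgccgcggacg
Mt2 holds 4 matches, Mt1 holds 3 and Slc30a1 holds 2, none overlapping another. Among 32851 promoter windows of the same length, 25.7% hold at least 1 match, 7.1% at least 2, 2.0% at least 3 and 0.5% at least 4. The first match of Mt1 begins 23 bases before the RefSeq start and the other matches lie within the first 27 bases after it. Those of Mt2 begin 223, 128 and 50 bases before the start and 5 bases after it. Slc39a8 and Slc30a5 hold 1 match each, Slc39a8 in 1 of its 2 windows, and Mtf1, Slc39a1, Slc39a10 and Slc30a7 hold none in their windows. Neither window of Slc39a10 covers the GENCODE start of a transcript of that gene. The nearer window ends at 46853868, whereas Slc39a10-201, the leading transcript, starts at 46854046 on the minus strand. The bases around that start were therefore not searched. The window of Mt1 ends at 94179138, before the GENCODE starts of other Mt1 transcripts at 94179211 and 94179241. Bases after the end of that window were not searched. The GENCODE start of Mt2-201 lies 46 bases after the RefSeq start, so the windows depend on the annotation. A match is a run of letters and not a measured binding site.

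All 10 members were detected, meaning at 1 TPM or more in all 3 replicates. TPM divides reads by transcript length and library total, so levels can be compared between genes. Of all mouse genes 18.1% were detected, and of protein-coding genes 42.7%. The median detected gene stood at 14.6, 15.2 and 14.1 TPM in replicates 1, 2 and 3. Depth was 24450338, 34641026 and 60595742 expected counts over mouse genes. All 8 macrophage markers were detected, Ly6g (neutrophils) was listed at 0, and no marker of T, B, NK, erythroid, mast, fibroblast or epithelial cells was detected, although the fibroblast gene Dcn reached 5.12 TPM in replicate 2. Of 10 neutrophil markers 3 were detected, with a summed level of 83.4, 715 and 48.5 TPM in replicates 1, 2 and 3, so replicate 2 stood apart. The replicates are not tied to separate animals by the labels, so p-values below concern these libraries only and do not measure spread between animals.

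**Figure D1:**
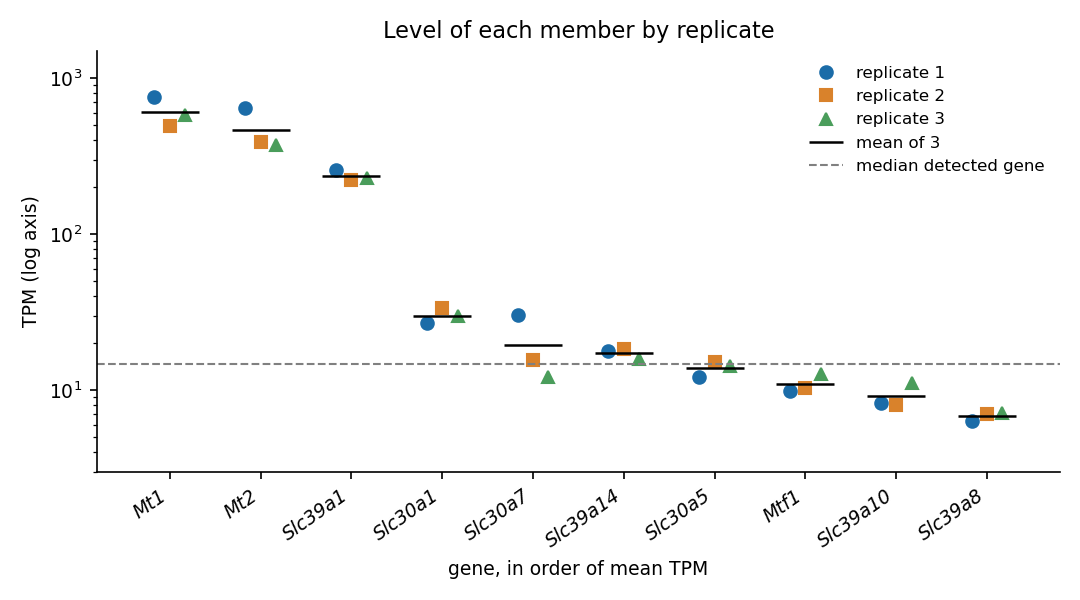
TPM of each member (log axis) in replicates 1, 2 and 3 (points), with the mean of 3 (black bars) and the median detected gene (dashed line). Mt1, Mt2 and Slc39a1 lie at 224 TPM or more in every replicate, and no other member exceeds 33.4 TPM.

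The metallothioneins led the members. Mt1 stood at 761, 491 and 582 TPM in replicates 1, 2 and 3 (611 ± 137, SD, n = 3), from 3607, 3029 and 6226 expected counts. Mt2 stood at 642, 387 and 370 TPM (467 ± 152), from 2653, 2059 and 3431 counts. Both were highest in replicate 1, while the lowest in TPM was replicate 2 for Mt1 and replicate 3 for Mt2. Among detected genes they ranked at the 97.6th and 96.8th percentile. Their sum was 1403, 878 and 952 TPM (1077 ± 284).

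Mt1 exceeded Mt2 in every replicate. The log2 ratio of Mt1 to Mt2 was 0.24, 0.34 and 0.65, a mean of 0.41 ± 0.21 (SD, n = 3) or 1.33-fold. The mean was larger than its SD, and the exact two-sided sign-flip permutation test gave p = 0.25, the smallest value that 3 replicates allow. The ratio was smallest in replicate 1, where both genes were highest. A single full-length coding transcript held nearly all of each gene: Mt1-201 made up 99.5 ± 0.249% of Mt1 TPM and Mt2-201 99.9 ± 0.026% of Mt2 TPM. Gm45774, an antisense gene that overlaps Mt2 over 749 bases, was assigned 17.0, 19.0 and 27.0 counts. The sources used here do not say if strand was kept, so reads of overlapping genes on opposite strands may not be told apart.

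The excess of replicate 1 held on counts as well as on TPM. Scaled with edgeR's TMM factors, Mt1 stood at 150, 83.0 and 107 CPM (counts scaled to the library total) and Mt2 at 110, 56.5 and 59.0. On this scale replicate 2 was the lowest for both genes. In TPM, replicate 1 lay 0.51 (log2) above the mean of the other replicates for Mt1 and 0.76 for Mt2. Both transcripts are short, at 550 and 511 nt, which places them at the 3.28th and 2.65th length percentile of detected genes. The 563 detected genes under 700 nt had a median replicate 1 difference of 0.09 in TPM, with quartiles of -0.24 and 0.56, against -0.02 over all detected genes. On CPM without length scaling that median was 0.22, beside 0.64 for Mt1 and 0.90 for Mt2. The 8 macrophage markers summed to 27685, 17989 and 21766 TPM and were also highest in replicate 1, whereas the neutrophil markers were highest in replicate 2. The part of transcript length or of these markers in the metallothionein difference was not tested. In bulk RNA, fewer cells of a type and less RNA per cell cannot be told apart.

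Of 9378 other detected protein-coding genes, those whose centred log2 levels over the 3 libraries lay closest to Mt1 were C1qa, Med21, Zbtb37, Map1lc3b and Serinc3. C1qa, a complement subunit gene, stood at 365, 232 and 278 TPM, a root mean square difference of 0.0077 from Mt1. Those closest to Mt2 were Hmgcs1, Upp1, Agmo, Dgka and Eno1b. Hmgcs1, a gene of cholesterol synthesis, stood at 82.1, 49.6 and 47.7 TPM, a difference of 0.0054 from Mt2. The metallothioneins were not each other's nearest genes: Mt2 ranked 1284th for Mt1 and Mt1 ranked 355th for Mt2, at a difference of 0.17. With 3 libraries such likeness is a description only, and 89 genes lay within 0.05 of Mt1.

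Mtf1 (chromosome 4, 124802104 to 124849800, plus strand of mm10), the gene of the zinc-sensing factor, stood at 9.79, 10.3 and 12.6 TPM (10.9 ± 1.52, SD, n = 3), at the 42.3rd percentile of detected genes. Replicate 3 was highest and the other replicates lay close together. Mt1 exceeded it 54.9-fold and Mt2 41.3-fold in TPM. Only part of Mtf1 TPM belonged to transcripts annotated as coding, 46.2 ± 2.54%. The retained-intron transcript Mtf1-204 (781 nt, 2 exons) led at 5.4, 5.24 and 7.0 TPM, from 45.5, 60.0 and 138 counts. The coding transcript Mtf1-201 (7631 nt) stood at 3.95, 4.44 and 4.28 TPM but held 467, 759 and 1245 counts, 90.5 ± 1.66% of the gene's counts. Of the 781 bases of Mtf1-204, 518 lie in exons of Mtf1-201 and 263 outside them. In the authors' second quantification Mtf1-204 also led, while the coding reads were split: Mtf1-201 stood at 1.79, 1.13 and 1.51 TPM and Mtf1-202, listed at 0 in the first, at 1.04, 3.13 and 2.13 TPM. The protein-coding gene 1110065P20Rik overlaps Mtf1 on the opposite strand over 721 bases and stood at 6.28, 4.9 and 5.19 TPM.

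Among the importers Slc39a1, which encodes ZIP1, a zinc importer of the cell surface, was far above the other members of its family. It stood at 258, 224 and 229 TPM (237 ± 18.3, SD, n = 3), from 8711, 10813 and 18820 counts, all in the single annotated transcript of 2364 nt. Its replicates lay close together relative to its distance from any other ZIP or ZnT gene. Slc39a1 (chromosome 3, 90248172 to 90253612, plus strand) stood below Mt2 in every replicate, with Mt2 higher by 0.93 ± 0.33 on the log2 scale or 1.91-fold.

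Slc39a14, Slc39a10 and Slc39a8 lay near or below the median detected gene. Slc39a14 (chromosome 14, 70303469 to 70351425, minus strand) encodes ZIP14, a zinc and iron importer known to be induced by inflammatory cytokines in liver, and stood at 17.8, 18.3 and 15.8 TPM (17.3 ± 1.33). Slc39a10 (chromosome 1, 46807544 to 46892852, minus strand) encodes ZIP10, a surface importer, and stood at 8.21, 8.04 and 11.1 TPM (9.11 ± 1.71), with replicate 3 above the others. Slc39a8 (chromosome 3, 135825279 to 135888572, plus strand) encodes ZIP8, an importer of the surface and lysosome that is a known target of NF-kB, and had the lowest level of all members at 6.35, 7.04 and 7.11 TPM (6.83 ± 0.42).

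The transcripts behind these levels differed in how firmly they were assigned. Slc39a10-201 held 99.7 ± 0.469% of Slc39a10 TPM, and 88.4% in the second quantification. Slc39a14-202 (4926 nt) held 74.3 ± 5.35% of Slc39a14 TPM and 96.0% of its counts, and 65.1% of TPM in the second quantification. A 479-nt coding fragment, Slc39a14-203, held 12.3 ± 7.04% of TPM from 7.18, 4.99 and 25.3 counts. Slc39a8 was divided among Slc39a8-201 (36.9 ± 16.7% of TPM), Slc39a8-206 (27.6 ± 15.3%), Slc39a8-205 (19.0 ± 7.23%) and the retained-intron transcript Slc39a8-204 (14.9 ± 2.84%). By replicate, Slc39a8-201 held 54.6%, 21.6% and 34.4% of the gene. Slc39a8-201 was therefore the leading transcript by mean but led only in replicate 1, and with 305, 489 and 834 counts for the whole gene the shares had a spread close to their differences. In the second quantification Slc39a8-206 led by mean TPM, with mean shares of 32.8% for Slc39a8-201 and 31.9% for Slc39a8-206.

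The exporters lay between 12.1 and 33.4 TPM in all replicates. Slc30a1 (chromosome 1, 191906767 to 191913247, plus strand) encodes ZnT1, the exporter of the plasma membrane and a classical MTF1 target, and stood at 26.8, 33.4 and 29.9 TPM (30.0 ± 3.31, SD, n = 3), from 2143, 3852 and 5875 counts in 1 transcript, Slc30a1-201. Replicate 2 was highest and replicate 1 lowest, the opposite of Mt1. Slc39a1 exceeded Slc30a1 in every replicate, by 2.98 ± 0.26 on the log2 scale or 7.87-fold. The antisense gene 1700034H15Rik, which overlaps Slc30a1 over 761 bases, was assigned 11.4, 13.2 and 6.12 counts.

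Slc30a5 (chromosome 13, 100802648 to 100833427, minus strand) encodes ZnT5, which loads zinc into the early secretory pathway, and stood at 12.1, 15.2 and 14.2 TPM (13.8 ± 1.58). Its coding transcript Slc30a5-201 held 68.6 ± 4.99% of TPM. The rest was nearly all Slc30a5-203, annotated as a target of nonsense-mediated decay, at 4.33, 3.98 and 4.52 TPM. In the second quantification Slc30a5-203 stood at 1.2, 0 and 0.42 TPM, and Slc30a5-201 held 91.9 ± 6.42% of the gene. All 2022 bases of Slc30a5-203 lie in exons of Slc30a5-201.

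Slc30a7 (chromosome 3, 115938973 to 116007406, minus strand) encodes ZnT7, a Golgi transporter, and had the widest spread of the members relative to its mean TPM. The gene stood at 30.5, 15.6 and 12.2 TPM (19.4 ± 9.72), so replicate 1 was far above the others. Its CPM did not show this: they were 68.3, 65.7 and 62.1, from 1670, 2277 and 3764 counts. The coding transcript Slc30a7-201 (9020 nt, 11 exons) stood at 11.3, 11.0 and 10.9 TPM, a coefficient of variation of 2.25%, and held 37.2%, 70.5% and 89.2% of the gene's TPM in replicates 1, 2 and 3.

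Most of the remaining Slc30a7 TPM was assigned to a short processed transcript, Slc30a7-203 (359 nt, 4 exons), at 16.6, 3.49 and 1.16 TPM. These values rested on 31.5, 7.81 and 4.7 expected counts, with exact Poisson intervals at 95% of 21.5 to 44.6, 3.33 to 15.5 and 1.46 to 11.2 counts, which cover counting error only. Its effective length, the length that reads could start from, was 118, 96.3 and 102 nt. A single count was therefore worth 0.53, 0.45 and 0.25 TPM in Slc30a7-203, and 0.0071, 0.0049 and 0.0029 TPM in Slc30a7-201. Of its 359 bases, 333 lie in exons of Slc30a7-201, so most of its sequence is shared with the coding transcript. The second quantification gave Slc30a7-203 a like pattern, at 17.3, 5.11 and 3.65 TPM. A further processed transcript, Slc30a7-204 (1326 nt), stood at 2.5, 1.09 and 0.15 TPM in the first quantification and at 0, 0 and 0.02 TPM in the second.

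**Figure D2:**
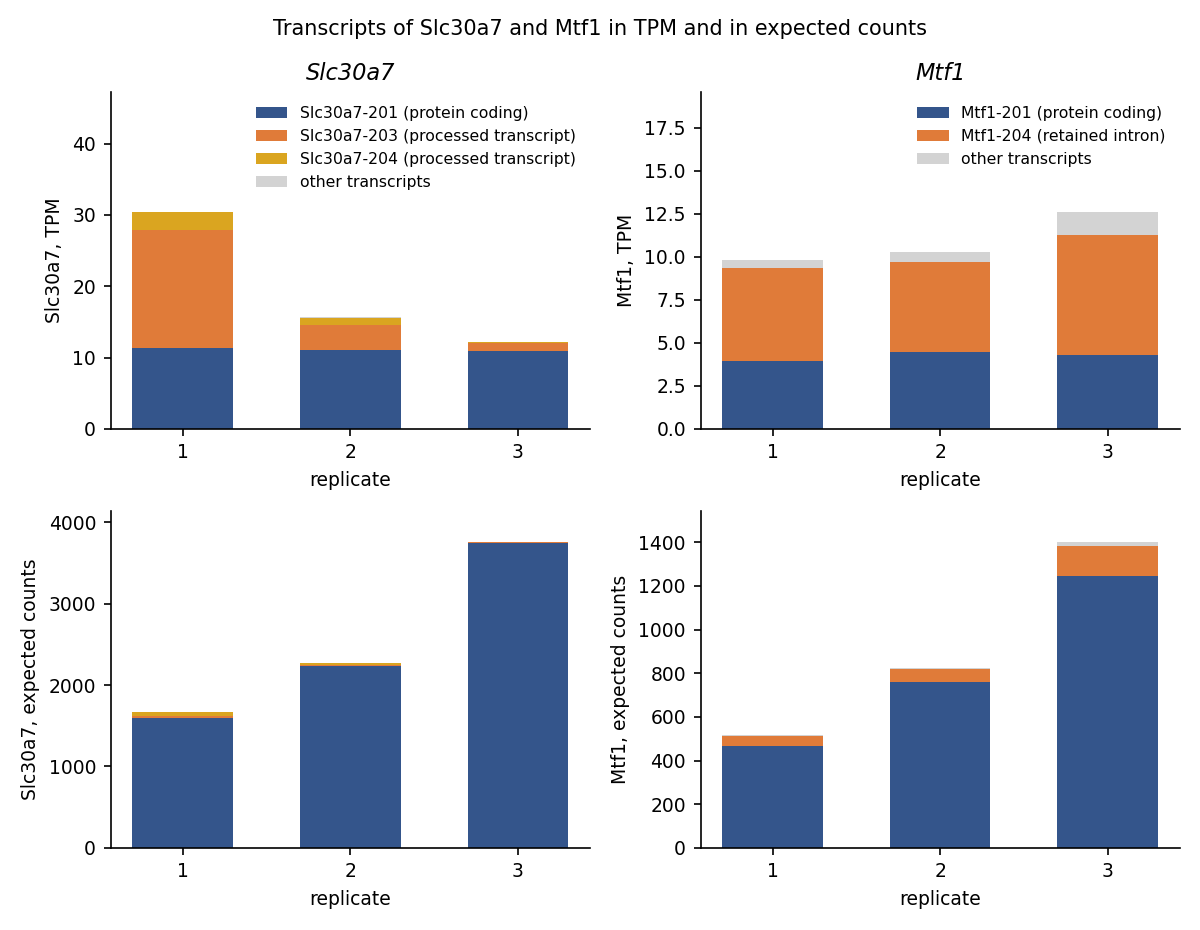
Transcripts of Slc30a7 (left) and Mtf1 (right) in replicates 1, 2 and 3, as stacked TPM (top) and stacked expected counts (bottom). Slc30a7-203 takes up to 16.6 TPM but at most 31.5 counts, and Mtf1-204 leads Mtf1 in TPM but holds 8.64% of its counts on average.

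Over coding transcripts alone, a setting added after these values were seen, the order of the lower members changed. Slc39a14 stood at 15.3 ± 0.658 TPM, Slc30a7 at 11.1 ± 0.249, Slc30a5 at 9.53 ± 1.75, Slc39a10 at 9.08 ± 1.66, Slc39a8 at 5.77 ± 0.271 and Mtf1 at 5.03 ± 0.616 (SD, n = 3). Mtf1, eighth by gene TPM, was then lowest. The order of the first 4, Mt1, Mt2, Slc39a1 and Slc30a1, was the same on both measures.

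By gene TPM the full order was Mt1, Mt2, Slc39a1, Slc30a1, Slc30a7, Slc39a14, Slc30a5, Mtf1, Slc39a10 and Slc39a8. Of 45 pairs of members, 41 had all 3 replicates on one side with a mean log2 ratio over its SD, and 29 were more than 2-fold apart. Exact sign-flip permutation tests of the 45 pairs gave no adjusted p below 0.274. With 3 replicates no such test can give a p below 0.25. Of 9 neighbouring pairs in the order, 7 had all replicates on one side. The exceptions were Slc30a1 over Slc30a7 (log2 0.73 ± 0.80) and Slc30a7 over Slc39a14 (0.06 ± 0.62), whose ratios changed sign between replicates. Over coding transcripts, Slc30a1 lay above Slc30a7 by 1.43 ± 0.18 and Slc39a14 lay above Slc30a7, the log2 ratio of Slc30a7 to Slc39a14 being -0.46 ± 0.09.

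The members were not highest in a common replicate. Replicate 1 was highest for Mt1, Mt2, Slc39a1 and Slc30a7, replicate 2 for Slc39a14, Slc30a1 and Slc30a5, and replicate 3 for Mtf1, Slc39a10 and Slc39a8. Of all detected genes, 30.4%, 43.9% and 25.7% were highest in TPM in replicates 1, 2 and 3. On TMM-scaled counts the highest replicate was the same for all 10 members, and the shares of all tested genes were 31.6%, 37.8% and 30.6%. In the second quantification Slc39a1 and Slc39a8 were instead highest in replicate 2, which gave 3, 5 and 2 members. The members' counts in the first quantification, on both scales, were 4, 3 and 3 of 10.

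**Figure D3:**
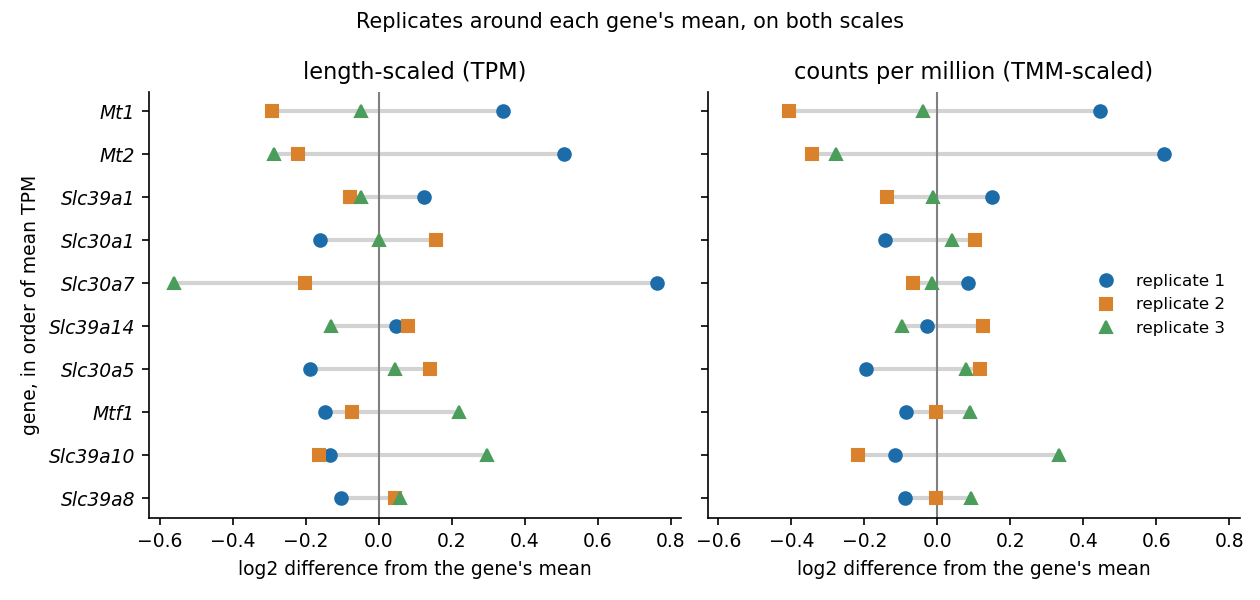
Replicates 1, 2 and 3 (points) of each member as log2 difference from that gene's mean, in TPM (left) and in TMM-scaled CPM (right). Slc30a7 has the widest range of all members on the left and 1 of the narrower ranges on the right, whereas Mt1 and Mt2 are spread widely on both.

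Counts departed from equal rates between libraries in 8 of 10 members, by a chi-square test on edgeR TMM-scaled library sizes with Benjamini-Hochberg adjustment over 11611 genes. Of all tested genes 77.5% did so, and the share of members was close to it. Mt2 (edgeR-scaled chi-square, adjusted p = 1.1e-164) and Mt1 (adjusted p = 5.54e-129) departed most among the members and Slc30a7 least among those that passed (adjusted p = 0.00715). Mtf1 (adjusted p = 0.0574) and Slc39a8 (adjusted p = 0.167) did not pass. In the second quantification both passed (edgeR-scaled chi-square, adjusted p = 0.00194 and 0.00354), and Mtf1 also passed with no filter on low counts (adjusted p = 0.0192) and without replicate 2 (adjusted p = 0.035). The test asks whether libraries differ beyond counting noise and so depends on depth. As a description, edgeR's biological coefficient of variation was 24.8% for Mt2, 22.1% for Mt1, 16.9% for Slc30a7, and 17.2% to 19.7% for other members. The median was 18.2% over the members and 21.3% over all tested genes. With 3 libraries edgeR draws each value toward a trend over all tested genes, so none is a gene's own spread. TMM-scaled CPM of Slc30a7 were 69.3, 62.4 and 64.7 in replicates 1, 2 and 3. Without replicate 1, 4 of 10 members departed beside 64.3% of all tested genes, and Mt2 was no longer among them (edgeR-scaled chi-square, adjusted p = 0.0898).

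Other genes of the same families were read from lists of all family members. Of 4 metallothionein genes only Mt1 and Mt2 were detected, and Mt3 and Mt4 had 0 counts in every replicate, which allows a share of up to 1.23e-05%, 8.66e-06% and 4.95e-06% of the counts in replicates 1, 2 and 3. Of 14 ZIP genes 10 were detected, with a summed level of 417, 391 and 416 TPM (408 ± 14.6, SD, n = 3). Slc39a1 supplied the largest part, followed by Slc39a7, which releases zinc from the endoplasmic reticulum, at 64.1, 63.8 and 79.5 TPM, and Slc39a11 at 22.1, 21.5 and 29.2 TPM. Of 10 ZnT genes 6 were detected, with a summed level of 115, 116 and 95.7 TPM (109 ± 11.6). Slc30a4, Slc30a6 and Slc30a9 lay within the range of the member exporters or just under it, at 17.2 ± 2.82, 17.1 ± 1.86 and 11.4 ± 2.71 TPM. Slc30a2, Slc30a8, Slc30a10 and Slc39a5 had 0 counts.

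**Figure D4:**
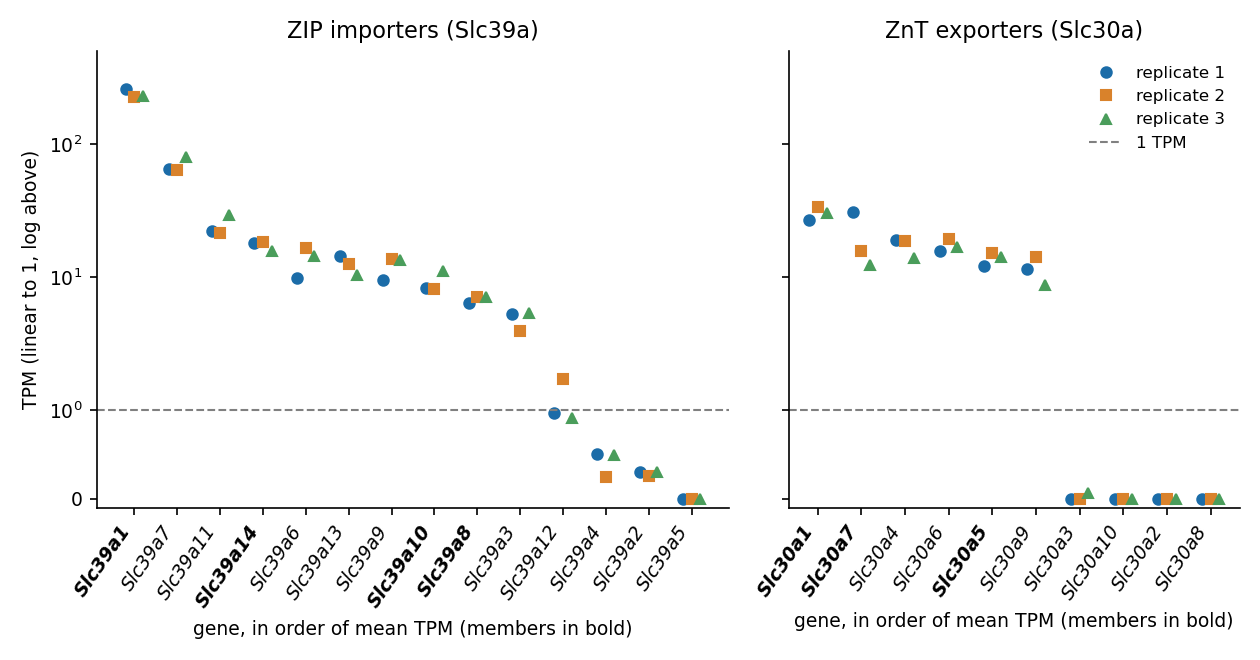
TPM of all 14 ZIP genes (left) and all 10 ZnT genes (right) in replicates 1, 2 and 3 (points), on an axis that is linear up to 1 TPM and logarithmic above it; members are in bold. Slc39a1 stands alone at 224 TPM or more, and the 6 detected ZnT genes lie between 8.70 and 33.4 TPM.

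The 4 member importers summed to 290, 257 and 263 TPM (270 ± 17.6, SD, n = 3) and the 3 member exporters to 69.4, 64.2 and 56.3 TPM (63.3 ± 6.56). Importers were higher in all replicates, and Slc39a1 alone exceeded the summed exporters in each. A sum of transcripts says nothing of transport, since the proteins sit in different membranes.

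Zinc is also bound by calprotectin, encoded by S100a8 and S100a9, which are neutrophil markers too. S100a9 stood at 47.1, 432 and 26.0 TPM and was high in replicate 2, unlike Mt1 and Mt2. Of 10 genes of copper and divalent metal handling 9 were detected. Slc11a1, the phagosomal divalent metal transporter of macrophages, stood at 240, 345 and 357 TPM in replicates 1, 2 and 3. It lay below Slc39a1 in replicate 1 and above it in replicates 2 and 3. Atox1, a copper chaperone, stood at 314, 219 and 287 TPM. Atp7b, a copper pump of liver, had 0 counts.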

How the data were processed

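Polyadenylated RNA of 3 libraries of 1 group was measured. The authors deposited, per library, gene and transcript quantifications with expected counts (estimated counts of fragments, which need not be whole), TPM and FPKM, and a second transcript quantification that holds TPM and estimated counts, per the file headers. The percent column of the deposited transcript tables was not used; transcript shares were computed from TPM. The text files deposited beside the tables name the mm10 assembly and GENCODE M21. Not given in the sources used here are the aligner, the quantifier and strandedness. Replicates were not pooled.

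Symbols came from the transcript names and were linked to gene identifiers. FPKM as deposited entered 1 alternative only, on detection. Ratios are log2 of (TPM + 0.1), which understates ratios of low genes. Expected counts were rounded and tested for equal rates with a chi-square test on TMM sizes of edgeR 4.0.16 in R 4.3.3, after its default filter on low counts and a check on simulated counts; significance was an adjusted p under 0.05. Alternatives were DESeq2 1.42.0 size factors, library totals, no filter, the second quantification, a pseudocount of 1 TPM, detection at 5 TPM, and leaving out each replicate. Entries that were not mouse genes, 0.117%, 0.0993% and 0.082% of counts in replicates 1, 2 and 3, were left out. Named were all 10 members, the listed genes of metal handling, transcripts with a mean share of 10% or more, and the 5 genes closest to Mt1 and to Mt2. Overlapping genes, Slc30a7-204 and Mtf1-202 were added after their values were seen. Members and lists were chosen with earlier results of these data known. Motifs and sequence identity were computed in Python 3.11.15.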

Additional observations from a re-analysis of the deposited data

How the results depend on the processing

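All 10 members were detected under each alternative: the second quantification, FPKM, 5 TPM, coding transcripts only, and without each replicate. The log2 ratio of Mt2 to Mt1 stayed negative in every alternative run. The count of members that departed from equal rates was 4 without replicate 1 and 4 to 8 when each replicate was left out in turn, beside 64.3%, 50.6% and 58.8% of all tested genes without replicates 1, 2 and 3. It was 8 with DESeq2 size factors (77.6% of all tested genes) or library totals (78.2%), and 10 in the second quantification (77.7%). With no filter it was 9, beside 49.6% of 20566 tested genes, which then included those of low counts. Mt2, Slc30a1, Slc30a5 and Slc30a7 were lost without replicate 1, Slc39a14 without replicate 2 (adjusted p = 0.321, edgeR-scaled chi-square) and Slc39a10 without replicate 3 (0.245). Of the ratios between neighbours in the order of levels, 3 changed direction. Mt2 to Slc39a1 was -2.19 on counts without length scaling, and Mtf1 to Slc39a10 was -0.45 on such counts and -0.83 over coding transcripts only. Slc30a7 to Slc39a14 was -0.46 over coding transcripts only and ranged from -0.30 without replicate 1 to 0.27 when each replicate was left out. Levels moved by more than 1 SD in 6 of 10 members in the second quantification and in 4 of 10 over coding transcripts only. The cause was not tested. The SD was each gene's own over replicates in gene TPM. Slc30a7 was therefore not counted, although it stood at 19.4 ± 9.72 in gene TPM and at 11.1 ± 0.249 over coding transcripts. With 3 replicates the exact sign-flip test of a ratio cannot pass 0.05.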
